A study of Drosophila melanogaster with 14 samples.

Results

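The 8 Hox genes of Drosophila melanogaster, lab, pb, Dfd, Scr, Antp, Ubx, abd-A and Abd-B, were followed in RNA-seq of larval wing discs. They were taken by their FlyBase gene IDs and are 8 of the 17807 genes of the deposited count table. Wing imaginal discs, the epithelial sacs that form the adult wing and notum, had been dissected from wandering larvae of instar 3 raised at 25 °C. The wildtype was yw, and the mutant, called nub1 here, was yw;nub[1], so both genotypes share the yw background. Each genotype had 3 libraries. The labels do not say how many larvae or crosses stand behind a library. The p-values thus rest on the spread among libraries, and that spread may be technical.

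Hox genes encode homeodomain transcription factors that give each segment of the body its identity. In flies they lie in a pair of gene complexes on chromosome arm 3R, in roughly the order of the segments they pattern. The Antennapedia complex holds lab, pb, Dfd, Scr and Antp, which act in the head and the anterior thorax. The Bithorax complex holds Ubx, abd-A and Abd-B, which act in the posterior thorax and the abdomen. The wing disc belongs to the second thoracic segment, the domain of Antp, while Ubx turns the corresponding disc of the third segment into a haltere and Scr keeps the first segment free of wings. Polycomb group proteins keep Hox genes silent outside their own segments, and Trithorax group proteins keep them active within them.

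Libraries held 58434785 to 83448836 counts, and levels are given as CPM (a gene's counts per 1000000 counts of its library, with TMM scaling, the trimmed mean of M-values). The targeted gene was checked first. The POU domain gene nub fell from 343, 323 and 321 CPM across the wildtype libraries to 13.1, 12.2 and 7.38 CPM across the mutant ones. Its neighbour and paralog pdm2 fell from 57.1 ± 0.394 to 0.107 ± 0.0426 CPM (SD, n = 3). Both genes were low in every library labelled nub1 and in no other. Among replicates of a genotype, nub1 replicate 3 stood furthest from the others, at 32.1 and 24.7 chi-square per degree of freedom against 4.15 between nub1 replicates 1 and 2. Of the wing markers, vg, sd, ap and zfh2 summed to 2196 to 2266 CPM in wildtype and 2605 to 2703 CPM in nub1. Among them, zfh2 rose from a mean of 825 to 1267 CPM and vg fell from 264 to 218 CPM. The genes sd and ap did not pass the test described below. In bulk tissue a smaller number of cells expressing a gene and less RNA per cell cannot be told apart, and this holds for every level below.

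In both genotypes the Hox reads of the disc came mostly from Antp. Antp took 93.3 ± 0.781% of the reads of the 8 genes in wildtype and 92.8 ± 0.455% in nub1 (SD, n = 3). Ubx took 5.41 ± 0.473% and 5.11 ± 0.352%, and Scr 0.817 ± 0.310% and 1.79 ± 0.288%. These are shares of reads, which also depend on transcript length. Exon lengths were not used here, so levels are compared between genotypes within a gene and the genes are not ranked by level. Of the 8, lab, Scr, Antp and Ubx had enough counts to be tested, and pb, Dfd, abd-A and Abd-B did not.

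Of the 4 tested genes, Scr and Antp rose in nub1 discs and lab fell, while Ubx did not pass the test (edgeR quasi-likelihood test, adjusted p under 0.05 over 9186 genes). In this comparison 48.3% of all tested genes were called, 24.4% higher and 23.9% lower, so that 3 calls among 4 genes are no result about the Hox genes as a group. The CPM values of those 3 genes did not overlap between genotypes, which was also the case for 60.0% of all tested genes. The median log2 fold change of the 4 was 0.08, beside -0.0030 over all tested genes. The size of the changes differed widely: 7.72% of all tested genes changed more than Scr in either direction, 19.1% more than lab, 57.8% more than Antp and 80.4% more than Ubx.

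**Figure D1:**
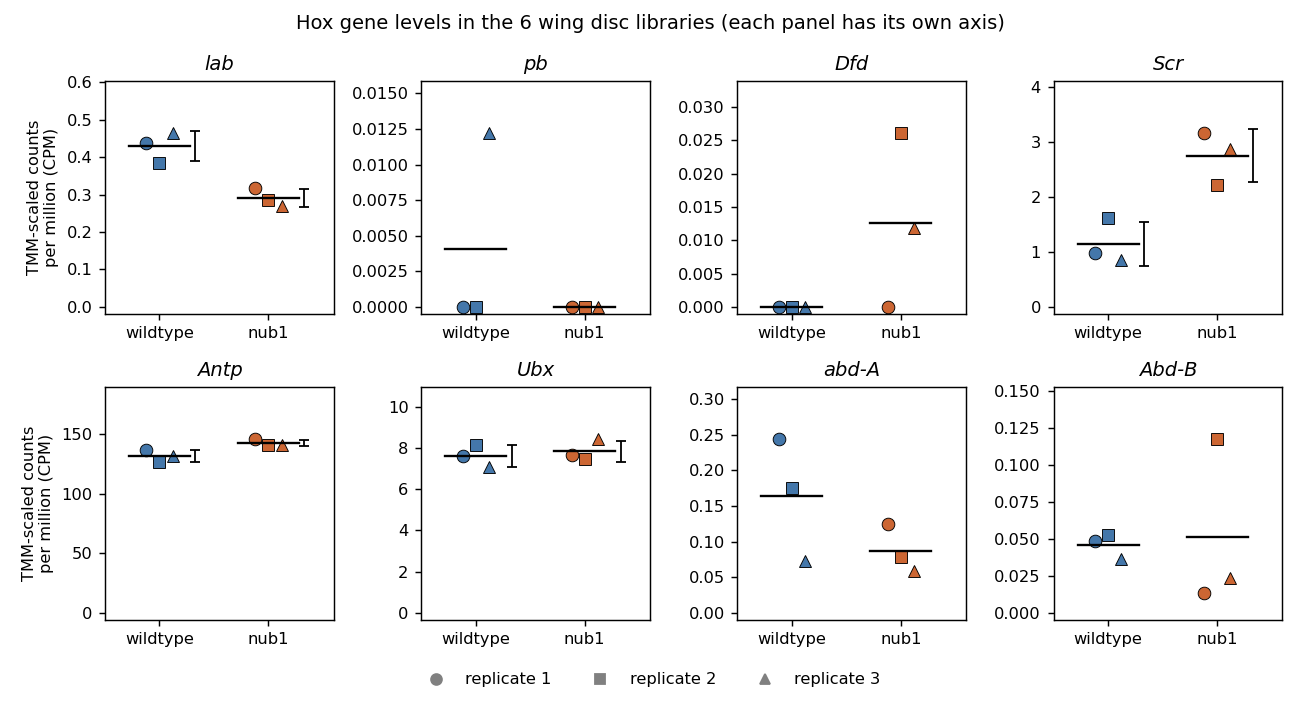
TMM-scaled CPM (vertical axis, a separate scale per panel) of the 8 Hox genes in 3 wildtype and 3 nub1 libraries. Symbols are replicates, horizontal lines are group means and bars are the SD for the 4 tested genes. The nub1 points of Scr and Antp lie above all wildtype points, those of lab below them, and those of Ubx among them.

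Antp, the Hox gene of the second thoracic segment and the founder of its complex (FBgn0260642, Release 6, the assembly of dm6, 3R, 6896253 to 6999228), had the largest number of Hox reads in every library. Wildtype replicates 1 to 3 had 137, 127 and 132 CPM (131.6 ± 4.94, SD, n = 3), and the nub1 replicates had 145.5, 140.9 and 140.9 CPM (142.5 ± 2.65). All nub1 libraries lay above all wildtype libraries, by a small margin. The rise was 8.22%, with a 95% confidence interval of 2.63% to 14.1% (log2 fold change 0.11 ± 0.03, SE; edgeR adjusted p = 0.0212). Among called genes, 89.4% changed more. The call was lost without wildtype replicate 2 (edgeR adjusted p = 0.0575), wildtype replicate 3 (0.0533) or nub1 replicate 1 (0.0690), with the log2 fold change at 0.09, 0.11 and 0.10.

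Ubx, which selects haltere over wing fate in the third thoracic segment (FBgn0003944, 3R, 16656623 to 16734426), was read in all libraries. It is also known to be expressed in the peripodial membrane, the thin cell layer that covers the wing disc. Counts were 469, 466 and 580 in wildtype and 555, 572 and 716 in nub1, or 7.61, 8.15 and 7.08 CPM and 7.66, 7.45 and 8.42 CPM (7.62 ± 0.534 and 7.84 ± 0.509, SD, n = 3). The genotypes overlapped, with the lowest value in wildtype replicate 3 and the highest in nub1 replicate 3. Nub1 differed from wildtype by 0.05 ± 0.08 on the log2 scale (SE; edgeR adjusted p = 0.644). As a change in percent, the 95% confidence interval of this difference ran from -8.43% to 16.3%. The direction turned without wildtype replicate 3 (-0.0063), nub1 replicate 3 (-0.0082) or both (-0.061). The haltere marker Cpr47Ee, a cuticle gene switched on by Ubx in the haltere, had 7, 11 and 0 counts in wildtype and 0, 1 and 0 in nub1, at most 0.192 CPM.

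Scr, the gene of the labial and first thoracic segments (FBgn0003339, 3R, 6823120 to 6849981), showed the largest change of the 4 tested genes. It had 60, 92 and 70 counts in wildtype and 229, 170 and 245 in nub1. Scaled, the wildtype libraries held 0.974, 1.61 and 0.855 CPM (1.15 ± 0.405, SD, n = 3) and the nub1 libraries 3.16, 2.21 and 2.88 CPM (2.75 ± 0.485). The groups did not overlap, although wildtype replicate 2 stood well above the other wildtype libraries. Scr was 2.43-fold higher in nub1, with a 95% confidence interval of 1.65 to 3.59 (log2 fold change 1.28 ± 0.24, SE; edgeR adjusted p = 0.00306). Even in nub1 Scr remained a gene of few reads.

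Other tissues that could carry Scr RNA were measured in the same libraries, where 24.4% of all tested genes were called higher and 23.9% lower. The first leg disc expresses Scr, and of 5 leg disc markers 0 rose and 2 fell, disco and btd, and disco-r, Sp1 and dac did not pass the test, with the list summing to 64.9 to 73.5 CPM in wildtype and 62.3 to 73.0 CPM in nub1. In salivary glands Scr switches on fkh, which had 1 count in wildtype and 2 in nub1 over all libraries, in replicate 3 of wildtype and replicates 1 and 2 of nub1. Of 6 myoblast markers, 3 rose (twi, htl and stumps) and 1 fell (Him), zfh1 and Mef2 did not pass the test, and the sum of the list went from a range of 282 to 294 CPM to 310 to 354 CPM. Of 4 tracheal markers, verm and serp rose (501 to 802 and 265 to 380 CPM). The marker trh fell (83.8 to 59.6 CPM) and btl did not pass the test. The sum of the list, most of it verm and serp, went from a range of 840 to 891 CPM to 1222 to 1283 CPM. The part of leg disc, salivary gland, myoblast and tracheal RNA in the Scr result was not tested.

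Markers of further tissues moved in both directions, beside the same 48.3% of all tested genes called. Among 5 haemocyte markers, NimC1 rose from 0.830 to 3.85 CPM srp and He fell and Hml and Pxn did not pass the test, and the sums of the list overlapped (34.3 to 64.2 CPM in wildtype, 59.0 to 63.5 CPM in nub1). Among 4 fat body markers, Lsp1alpha rose from 0.546 to 4.84 CPM and Fbp1 fell from 13.6 to 1.92 CPM, while Lsp1beta and Lsp2 did not pass the test, again with overlapping sums (14.9 to 43.1 and 18.3 to 22.4 CPM). The neuronal genes elav and Syt1 rose. The neuronal gene brp was called lower but passed the filter on low counts by its wildtype libraries alone, and the other 3 neuronal markers, nSyb, ChAT and VGlut, were too low to test. Of the 4 eye-antennal markers, so and eya fell, ey did not pass the test and toy was too low. Their part in the Hox values was not tested either.

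The gene lab, the most anterior Hox gene, which patterns the head and midgut (FBgn0002522, 3R, 6661427 to 6678590), was read at a low level. Counts were 27, 22 and 38 in wildtype and 23, 22 and 23 in nub1, or 0.438, 0.385 and 0.464 CPM and 0.317, 0.287 and 0.270 CPM (0.429 ± 0.0404 and 0.291 ± 0.0238, SD, n = 3). Every nub1 value was under the lowest wildtype value. On the log2 scale the difference was -0.57 ± 0.21 (SE; edgeR adjusted p = 0.0494), and its 95% confidence interval ran from -1.04 to -0.10. The call rested on the analysis chosen: it was lost without any single library (adjusted p from 0.0600 to 0.151) and in 8 of the 9 other settings in which lab was tested, such as the DESeq2 Wald test (0.237).

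Of the other Hox genes, pb (FBgn0051481, 3R, 6707800 to 6742063) and Dfd (FBgn0000439, 3R, 6791836 to 6802428), which act in the mouthparts and head, were at or near the limit of detection. Over 202822848 wildtype and 231625981 nub1 counts, pb had 1 and 0 counts and Dfd 0 and 3. A floor of 3 counts over the group is 0.0148 CPM for the wildtype libraries and 0.0130 CPM for the nub1 libraries. For a count of 0, the exact Poisson 95% interval reached 0.0182 CPM in wildtype (Dfd) and 0.0159 CPM in nub1 (pb). No difference was detectable at this depth. Abd-B, the gene of the most posterior segments (FBgn0000015, 3R, 16927212 to 16972236), had 3, 3 and 3 counts in wildtype and 1, 9 and 2 in nub1, so that nub1 replicate 2 alone held 9 of the 12 nub1 counts.

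The abdominal gene abd-A (FBgn0000014, 3R, 16807214 to 16830049) was read a little more often, with 15, 10 and 6 counts in wildtype and 9, 6 and 5 in nub1. Summed, this was 0.153 CPM in wildtype (exact Poisson 95% interval 0.104 to 0.217) and 0.0863 CPM in nub1 (0.0527 to 0.133), intervals that cover counting error only. The CPM values of the groups overlapped, and an exact two-sided permutation test over the 6 libraries gave p = 0.3, where 0.1 is the smallest value possible. Leaving out wildtype replicate 3, the lowest of its group, let abd-A pass the filter and be called lower (edgeR adjusted p = 0.0476). In the other settings that tested it, abd-A was not called (edgeR adjusted p from 0.104 to 0.404). Of all libraries, 2 wildtype and 0 nub1 ones reached the CPM level of the filter, so wildtype, where abd-A was higher, brought it near testing.

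Ratios of Hox genes within a library do not depend on the scaling between libraries. The log2 ratio of Scr to Antp counts was -7.13, -6.30 and -7.27 in the wildtype libraries and -5.53, -5.99 and -5.61 in the mutant libraries. The difference of means was 1.19, and the genotypes did not overlap (exact two-sided permutation p = 0.1, the smallest possible for 3 against 3, and 0.15 adjusted over 3 ratios). For lab to Antp the difference was -0.67, also without overlap (exact p = 0.1, adjusted 0.15). For Ubx to Antp it was -0.07, with overlapping genotypes (exact p = 0.5, adjusted 0.5). Without wildtype replicate 2 the Ubx to Antp difference was 0.0052.

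**Figure D2:**
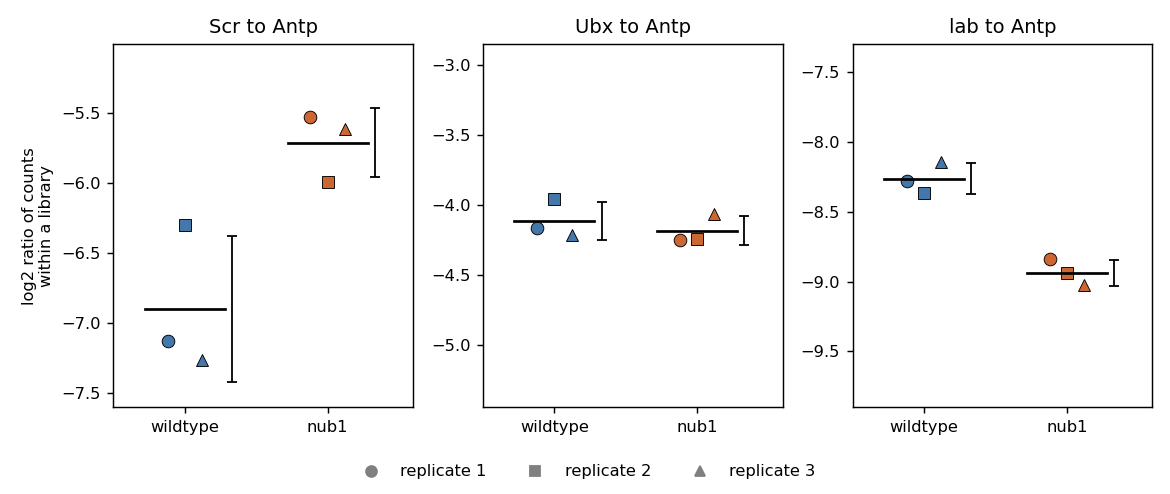
Log2 ratio of counts within a library (vertical axis, the same span in each panel) for Scr, Ubx and lab against Antp, in 3 wildtype and 3 nub1 libraries. Symbols are replicates, lines are means and bars are the SD. The Scr ratio was higher in every nub1 library (difference 1.19), the lab ratio lower in every one (-0.67), and the Ubx ratios overlapped.

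**Figure D3:**
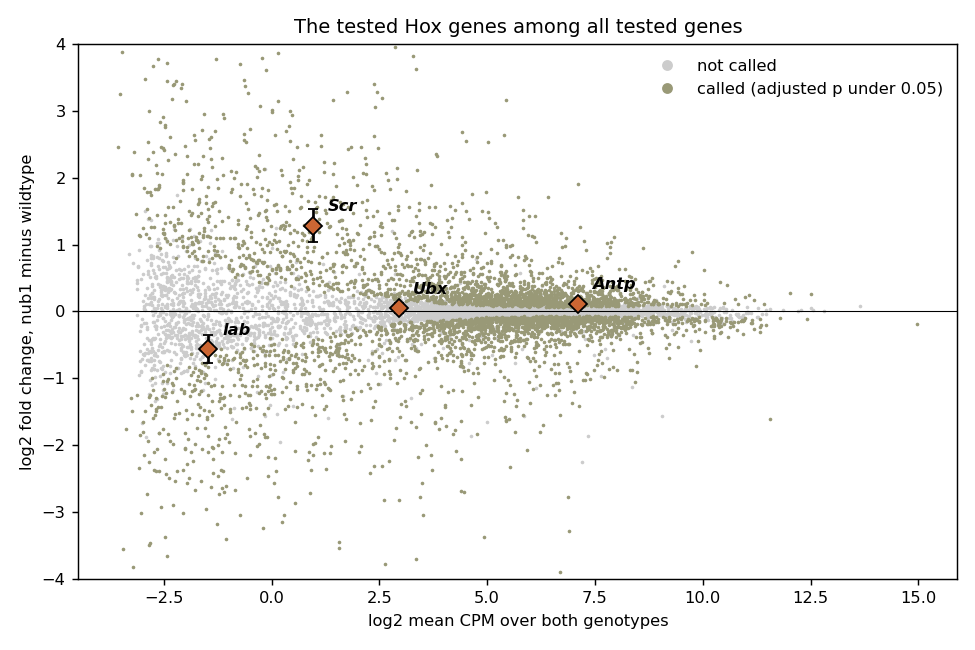
Log2 fold change of nub1 against wildtype (vertical axis) by log2 mean CPM (horizontal axis) for all tested genes, with the 4 tested Hox genes as diamonds with their SE. Of 9186 genes, 142 lie beyond a log2 fold change of 4 in size and are not drawn. Scr lies well above the zero line, while Antp and Ubx lie close to it.

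The remaining genes of the Antennapedia complex were taken by position, as all annotated genes between the outer ends of lab and Antp. Of these 39, 8 were tested, of which 1 rose and 5 fell, and 31 were too low, 14 of them without a count. The median log2 fold change of the 8 was -0.56 (-0.0030 over all tested genes). Some of the 8 had enough counts to be tested only in the genotype where they were higher, so the number of calls among them is no evidence about the complex. The other homeobox genes of the complex, the early embryonic genes zen, zen2, bcd and ftz, had at most 1 count each over all libraries.

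Long non-coding RNA genes near Scr and Antp moved in different directions. lncRNA:CR45559, which lies between ftz and Antp and ends 2791 bases from Antp (3R, 6892918 to 6893462), had 9, 8 and 7 counts in wildtype and 42, 27 and 32 in nub1. All nub1 libraries were higher (0.146, 0.140 and 0.085 CPM against 0.579, 0.352 and 0.376 CPM; log2 fold change 1.83 ± 0.34; edgeR adjusted p = 0.00206). It reached the filter on low counts in 3 nub1 and 2 wildtype libraries. It is read here as a gene of its own, and nothing in the files ties it to Scr or to Antp.

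lncRNA:CR42651, which lies between Dfd and Scr and overlaps the microRNA gene mir-10 (3R, 6808796 to 6816379), had 15, 25 and 22 counts in wildtype and 7, 8 and 9 in nub1. All nub1 libraries were lower (log2 fold change -1.59 ± 0.34; edgeR adjusted p = 0.00443), and the gene passed the filter through the wildtype libraries alone. The mir-10 gene itself had 0 counts, as had mir-993, mir-iab-4 and mir-iab-8, the other microRNA genes of both complexes. These counts do not tell whether the microRNA was present. On the other side of Antp, lncRNA:CR45899 begins 1264 bases beyond its end and rose from 8, 12 and 21 to 25, 30 and 34 counts (log2 fold change 0.90 ± 0.28; edgeR adjusted p = 0.0249). Like lncRNA:CR45559, it reached the filter on low counts in 3 nub1 and 2 wildtype libraries.

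The long non-coding RNA genes at and within Antp did not pass the test. lncRNA:CR43252 lies inside the Antp span and differed by -0.04 ± 0.13 on the log2 scale (edgeR adjusted p = 0.805). lncRNA:CR44932 lies 125 bases from Antp and differed by -0.16 ± 0.08 (edgeR adjusted p = 0.133). Both directions are opposite to that of Antp, although the sign of lncRNA:CR43252 turned without wildtype replicate 1 (0.06). No source used here gives the strand setting of the counts, and reads of genes that overlap may have been assigned to either gene or to neither.

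Between pb and Dfd, the immunoglobulin family gene Ama fell in nub1 discs. It had 330.2, 312 and 283 CPM in wildtype and 178, 173 and 171 CPM in nub1, with no overlap (log2 fold change -0.83 ± 0.05; edgeR adjusted p = 7.11e-06). Ama is also expressed by myoblasts, and among the 6 myoblast markers 3 rose and 1 fell, as given above. The part of myoblast RNA in the Ama value was not tested. Of its neighbours, lncRNA:CR45593, which overlaps it, fell from 27, 29 and 20 to 11, 17 and 14 counts, and lncRNA:CR44930 from 9, 13 and 26 to 5, 4 and 11 counts. lncRNA:CR44930 was tested by virtue of its wildtype libraries alone, since no nub1 library reached the filter. Leaving out wildtype replicate 1, wildtype replicate 2, nub1 replicate 1 or nub1 replicate 3 ended the call of lncRNA:CR45593, with edgeR adjusted p from 0.0627 to 0.0911. For lncRNA:CR44930 the same held of wildtype replicate 2, wildtype replicate 3, nub1 replicate 1 and nub1 replicate 2, with edgeR adjusted p from 0.0571 to 0.106, and the DESeq2 Wald test on all libraries did not call it either (adjusted p = 0.0642). Between lab and pb, lncRNA:CR33938 went from 24.9 ± 0.909 CPM in wildtype to 20.4 ± 1.72 CPM in nub1, a difference of -0.29 ± 0.06 on the log2 scale (edgeR adjusted p = 0.00486).

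**Figure D4:**
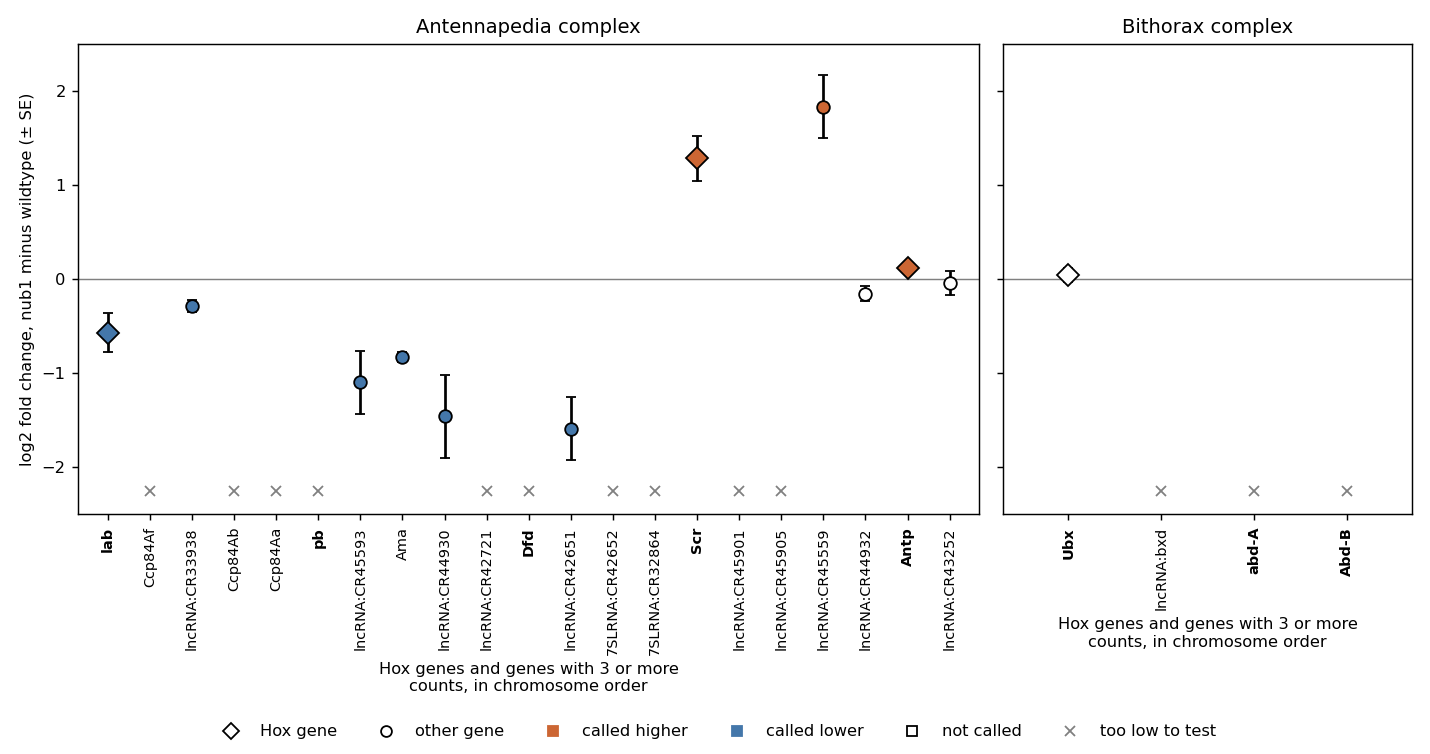
Log2 fold change of nub1 against wildtype with its SE (vertical axis) for the Hox genes and the other genes with at least 3 counts, in chromosome order along each complex. Diamonds are Hox genes, circles other genes, fill gives the call, and crosses at the bottom mark genes too low to test. From lab to lncRNA:CR42651 the tested genes lie below 0, while Scr and lncRNA:CR45559 lie at 1.28 and 1.83. Of those below 0, lncRNA:CR44930 and lncRNA:CR42651 were tested through their wildtype libraries alone. Further along, lncRNA:CR44932 and lncRNA:CR43252 lie below 0 as well.

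In chromosome order, the tested genes from lab up to lncRNA:CR42651 all lay below 0. Scr and the next tested gene, lncRNA:CR45559, lay above it. In the stretch below 0, lncRNA:CR44930 and lncRNA:CR42651 were tested through their wildtype libraries alone, where they were higher. Past lncRNA:CR45559, lncRNA:CR44932 and lncRNA:CR43252 lay below 0 again (-0.16 and -0.04), and Antp above it (0.11). The order was noticed after the values were seen and was not tested. The cuticle gene Ccp84Aa, between lab and pb, was too low to test but had 28 counts in wildtype and 2 in nub1, and was called lower with no filter on low counts (edgeR adjusted p = 0.000449).

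The Bithorax complex outside its Hox genes was almost without reads. Of the 12 other annotated genes between the outer ends of Ubx and Abd-B, 0 were tested, 5 had no count, and the highest count over all 6 libraries was 4. Among them lncRNA:bxd, the non-coding transcript next to Ubx, had 2 counts in wildtype and 2 in nub1. Of the 10 nearest genes on each side of both complexes, 19 of 40 were tested, 7 rose and 6 fell, 68.4% called beside 48.3% of all tested genes, with a median log2 fold change of 0.02. Nearest to Ubx, modSP fell (-0.20 ± 0.03 on the log2 scale).

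The cofactors that Hox proteins bind DNA with were expressed at high levels. The homeodomain gene exd, the main DNA-binding partner of Hox proteins, fell from 493, 478 and 495 CPM to 430, 433 and 424 CPM, with no overlap (log2 fold change -0.19 ± 0.03; edgeR adjusted p = 0.000447). Its own partner hth, which brings Exd protein into the nucleus and marks the proximal disc, differed by 0.02 ± 0.05 on the log2 scale (edgeR adjusted p = 0.756). The sign of hth turned without wildtype replicate 3 (-0.014) or nub1 replicate 1 (-0.013). The zinc finger genes tsh and tio, which act beside Hox genes in the trunk and are expressed in the proximal disc, rose by 0.20 ± 0.02 and 0.25 ± 0.04 on the log2 scale. The wing hinge gene zfh2 rose as well (0.62 ± 0.03), as did Antp. Whether a shift in the share of proximal cells takes part in the Antp value was not tested.

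Genes known to be regulated by Ubx in the haltere were read beside a Ubx level that did not pass the test. All but the haltere gene Cpr47Ee had enough counts to be tested. Of 11 genes in this list 10 were tested, of which 3 rose and 6 fell, beside 24.4% of all tested genes called higher and 23.9% lower. Their median log2 fold change was -0.25 (-0.0030 over all tested genes). The gene kn, whose product specifies the region between the central wing veins, fell from 55.2 to 5.33 CPM (-3.38 ± 0.06), ana, a secreted glycoprotein gene, from 73.6 to 29.4 CPM (-1.33 ± 0.04), and salr by 0.23 on the log2 scale. The wing selector vg fell by 0.27. Several of these genes are also known as wing pouch genes, and the part of pouch tissue in their values was not tested.

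Targets known from other Hox segments showed no common direction. Of 9 such genes, 8 had a match in the table and 5 were tested, of which 2 rose and 1 fell, 60.0% called beside 48.3% of all tested genes. The cell death gene rpr, a Dfd target in the embryonic head, rose from 9.60 to 14.0 CPM (0.55 ± 0.06), and the proneural gene ato from 0.729 to 1.51 CPM (1.05 ± 0.20). The limb gene Dll, which Ubx and Abd-A proteins repress in the embryonic abdomen, fell from 134 to 70.5 CPM (-0.92 ± 0.07). For Con, a cell adhesion gene, the difference was -1.29 ± 0.44 (edgeR adjusted p = 0.0693). The part of Hox genes, or of a shift in tissue, in these values was not tested.

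The chromatin regulators that hold Hox genes on or off changed little in level. All 16 Polycomb group genes of the list were tested, and 4 rose and 2 fell, or 37.5% called beside 48.3% of all tested genes. Their log2 fold changes ran from -0.16 to 0.17 with a median of 0.04. ph-p fell by 0.16, and caly, Su(z)12 and esc rose by 0.13, 0.15 and 0.17. Of 9 Trithorax group genes 2 rose and 2 fell, 44.4% called and thus near the 48.3% of all tested genes. They ranged from -0.20 for Trl, the GAGA factor, to 0.18 for ash2, with osa higher by 0.10 and mor at -0.09. Among 3 insulator protein genes CTCF rose (0.14 ± 0.03), and su(Hw) and Cp190 did not pass the test. These are RNA levels of the regulators and say nothing of their occupancy at the complexes.

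For each tested Hox gene, the genes whose log2 CPM followed it most closely over the 6 libraries were listed, among the 6795 or 6796 others that averaged 5 CPM or more. For Scr they were Trm7-32, CG2811 and Syx7 (Pearson r = 0.999, 0.995 and 0.994), which rose by only 0.16, 0.15 and 0.08 on the log2 scale. For Antp they included shn and CaMKI (0.998 and 0.991), and for lab they were Gp150, HemK1 and Gbs-76A (0.992, 0.989 and 0.988). For Ubx they were slv, CG5104 and Sec10 (0.969, 0.961 and 0.953). With 6 libraries in 2 genotypes such values are easily reached: 70, 99 and 189 genes had r over 0.95 with Scr, Antp and lab, and 4 with Ubx.

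**Figure D5:**
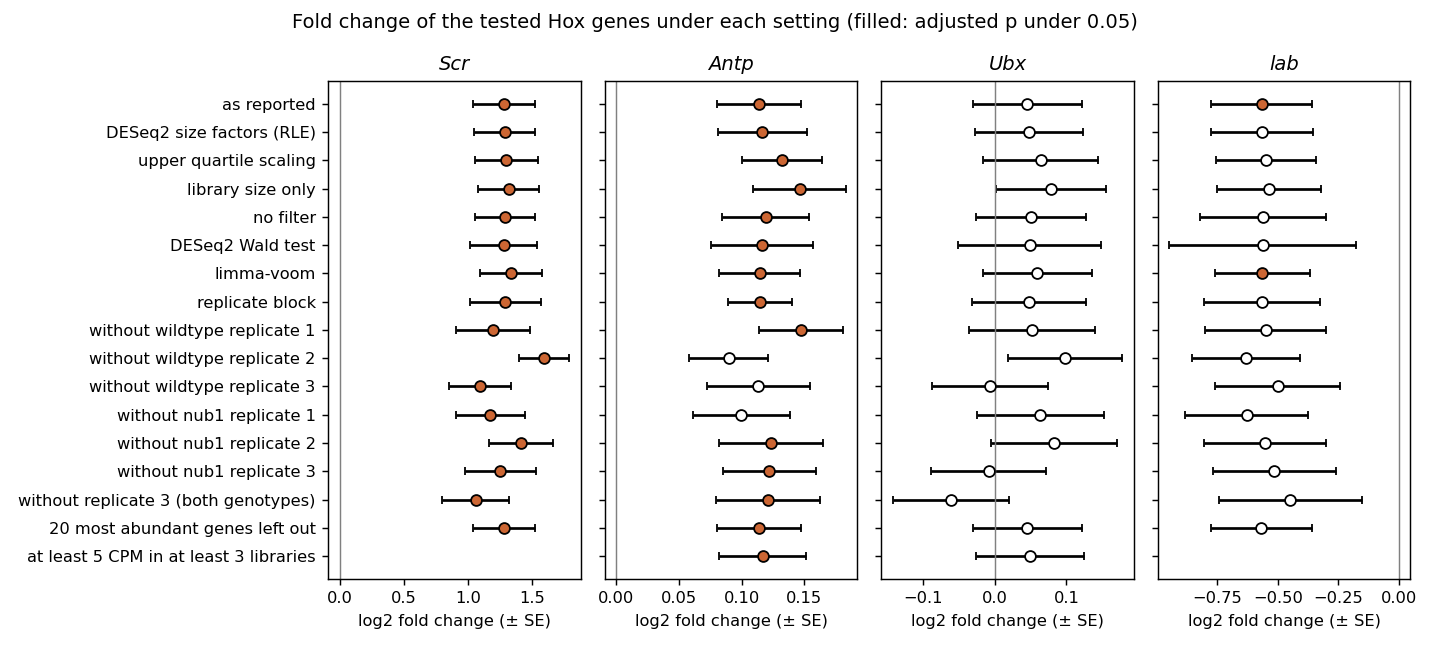
Log2 fold change with its SE (horizontal axis, a separate scale per panel) of Scr, Antp, Ubx and lab under each scaling, filter, test and choice of libraries (rows). Filled points have an adjusted p under 0.05. Scr is filled in every row in which it was tested (1.06 to 1.59), Antp in all but 3, Ubx in none, and lab in 2.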

How the data were processed

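The members and gene lists were chosen with earlier results of these data known. The RNA-seq counts of 6 libraries were used. Samples from other assays were not analysed here. The authors deposited raw read counts per gene, without normalization. Per the labels' protocols, a strand-specific RNA kit was used. The tools named without version or role, per the submitters' processing notes, were Bowtie2, HISAT2, bcl2fastq, deepTools and featureCounts, with the build dm6. Not given in the sources used here were the strand setting, the treatment of multi-mapping reads and the annotation. Of 17807 gene IDs, 17710 matched a symbol, and 97 IDs without one held 0.687% of the counts. Positions came from RefSeq, Release 6.

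Genes with at least 0.135 CPM in at least 3 libraries and enough counts in total (filterByExpr, 9186 genes) were TMM-scaled, and genotype was tested as the only term by edgeR's robust quasi-likelihood method, with Benjamini-Hochberg adjustment over all of them. Confidence intervals are 95% and come from the same fit, and the SE is the size of the log2 fold change divided by the square root of F. Single ratios used exact permutation tests over libraries. The software was edgeR 4.0.16, DESeq2 1.42.0 and limma 3.58.1 in R 4.3.3, with scipy 1.17.1 and matplotlib 3.10.9. The code was tested on simulated counts. Named were the 8 Hox genes, tested genes of the complexes, all members of lists of up to 6 genes, otherwise up to 4 called members with the smallest adjusted p, and for each tested Hox gene the 3 genes most correlated with it, of which 1 is not reported here. Other genes, such as Ccp84Aa, Cpr47Ee, fkh, Con, modSP, lncRNA:CR45899 and lncRNA:bxd, are examples chosen after their values were seen. Alternatives were other scalings, filters and tests, a replicate block, and leaving out libraries.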

Additional observations from a re-analysis of the deposited data

How the results depend on the processing

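Scr kept its direction and its call in every alternative in which it was tested, with log2 fold changes of 1.06 to 1.59, and it was not tested at a minimum of 5 CPM in at least 3 libraries. Of the Hox genes, 2 were called higher, and 1 at that minimum; leaving out single libraries gave 1 to 2. The 1 Hox gene called lower, lab, became 0 with DESeq2 size factors, the upper quartile, library size only, no filter, the minimum of 5 CPM, the DESeq2 Wald test and the 20 most abundant genes left out. Leaving out libraries gave 0 to 1, where the 1 without wildtype replicate 3 was abd-A and not lab. With the replicate block (replicate number as a term) 0 Hox genes were called lower and 2 higher. Same-numbered libraries deviated together with correlations of 0.031, 0.028 and 0.227. Wildtype replicates 1 and 2 correlated best with other numbers, while the 0.227 between the libraries numbered 3 was the highest of all pairs. Whether same-numbered libraries share more than a number was not tested.

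Ubx changed sign without wildtype replicate 3 (-0.0063), nub1 replicate 3 (-0.0082) or both libraries numbered 3 (-0.061), with a range of -0.0082 to 0.098 over single libraries left out. The Ubx to Antp difference ranged from -0.13 to 0.0052, the latter without wildtype replicate 2. Also reversed, none of them called, were lncRNA:CR43252 (-0.12 to 0.057), hth (-0.014 to 0.061), Sp1 (-0.64 to 0.12) and Pxn (-0.35 to 0.15), each over single libraries left out. Among other genes of the complexes, 1 was called higher and 5 lower, against 0 and 2 at the minimum of 5 CPM and 3 to 4 lower without single libraries. In the lists of cofactors, targets and chromatin genes 14 were called higher, 8 to 14 without single libraries. No other scaling moved the median of all genes by more than 0.1 on the log2 scale; library size only gave 2675 higher and 1815 lower against 2239 and 2195. The causes of these changes were not tested. Depth limits pb, Dfd, abd-A and Abd-B.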
